A study of Macaca mulatta with 24 samples.

Results

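The genes described here are the Wnt ligands, their cell-surface receptors and co-receptors, the R-spondins with their LGR receptors, and the secreted Wnt inhibitors, measured by RNA-seq in omental white adipose tissue (WAT) of female rhesus macaques. They were chosen by symbol alone (WNT, FZD, *LRP5*, *LRP6*, RSPO, *LGR4* to *LGR6*, DKK, SFRP, *FRZB* and *WIF1*), and 38 of the 32386 genes of the count table carried such a symbol. These were 13 ligands, 8 Frizzled receptors, 2 LRP co-receptors, 3 R-spondins, 3 LGR receptors, 4 Dickkopf genes and 5 genes of the SFRP, *FRZB* and *WIF1* class. No gene carried the symbol *WNT2*, *WNT3A*, *WNT4*, *WNT6*, *WNT10A*, *WNT11*, *FZD1*, *FZD5*, *RSPO2* or *SFRP5*, so these family members are not covered. Of the 38 genes, 28 passed the filter on low counts and were tested among 15207 genes.

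Biopsies came from 24 animals in 4 groups of 6, with 1 library per animal. Controls (*C*) carried cholesterol implants and ate monkey chow, the *T* group carried testosterone implants on chow, the *WSD* group carried cholesterol implants on a high-fat Western-style diet, and the *T* + *WSD* group received testosterone and the diet together. Exposure had lasted 3 years at biopsy, age was 4 years by the labels and higher by the methods, and the animals had been picked as representative of larger groups. RNA was taken from whole tissue, so adipocytes, vessels, stroma and the mesothelial cells that line the omentum all contributed.

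Wnt proteins are secreted, lipid-modified signals that bind Frizzled receptors. Together with *LRP5* or *LRP6* they stabilise beta-catenin in the canonical branch, and through co-receptors such as *ROR2* they act without it. R-spondins amplify the signal by holding back the ubiquitin ligases *RNF43* and *ZNRF3*, while Dickkopf proteins block the LRP co-receptors and SFRP family proteins and *WIF1* bind Wnts outside the cell. In fat, canonical Wnt signals are known for restraining the formation of adipocytes from their progenitors.

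Total counts ran from 6899185 to 28270776 per library, with a median of 20630512.5. In 8 libraries, 2 in each group, the gene ENSMMUG00000038258 took 9.92 to 54.7% of the counts against 0.879 to 2.51% in the other 16, and these 8 are called the library batch. The name is only a short form for a share above 5% in these counts. The labels give no batch, and what set these libraries apart was not tested. Adipocyte genes identified the tissue, with none of 8 markers at 0 in any library and summed levels between 2831 and 21770 CPM. CPM are counts per 1000000 counted reads after TMM scaling, which adjusts library sizes for a few dominant genes. A gene was called at an adjusted p under 0.05 with a difference above 1.5-fold. In *T* + *WSD* against *C*, 4.72% of all tested genes were called higher and 5.29% lower. Of 9 tested mesothelial markers 7 were called lower. Called higher were 6 of 11 endothelial markers, 4 of 9 smooth muscle and pericyte markers, 2 of 8 adipocyte markers and 1 of 6 macrophage markers, and 1 of 9 fibroblast markers was called lower. The single macrophage and fibroblast calls were 16.7% and 11.1% of those tested, against 10% of all genes.

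The comparison of *T* + *WSD* with *C* asked what both exposures together changed. Of the 7 Wnt ligands that could be tested, 5 were called lower under both exposures and none was called higher. Ligands without a symbol or under the filter are not part of this count. The receptors split, with *FZD4* and *LRP6* higher and *FZD7* and *FZD3* lower. The R-spondins moved in opposite directions, *RSPO3* up and *RSPO1* down, and among the inhibitors *FRZB* and *DKK2* were higher and *DKK3* lower. In total 14 of the 28 tested genes (50%) were called, which required an adjusted p under 0.05 together with a difference above 1.5-fold, against 10% of all tested genes. Of these, 5 were higher (4.72% of all tested genes) and 9 were lower (5.29%). By adjusted p alone 15 passed (17.1% of all tested genes), 17 had an unadjusted p under 0.05 (32.1%), and DESeq2 called 15 (10.9% of the genes it tested). The median log2 fold change of the 28 genes was -0.30, against -0.04 over all tested genes. In these whole-tissue libraries, fewer cells of a type and less RNA per cell cannot be told apart.

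**Figure D1:**
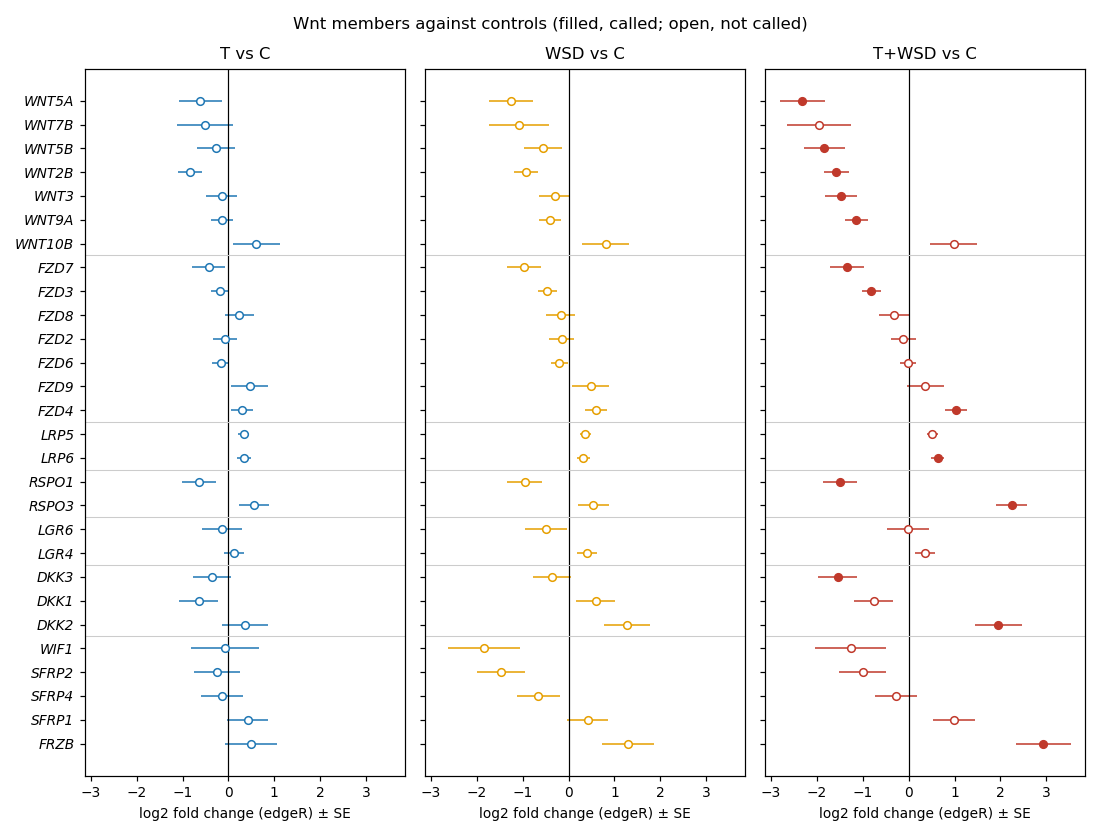
Log2 fold change against *C* with its standard error (edgeR, n = 6 animals per group) for the 28 tested genes, in *T* (left), *WSD* (middle) and *T* + *WSD* (right), grouped by role with grey lines between roles. Filled points were called and open points were not; 14 are filled in *T* + *WSD* and 0 in *T* and *WSD*.

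The mesothelial markers moved with these genes. Their summed level ran from 903 to 3864 CPM in *C*, from 675 to 1718 CPM in *T*, from 187 to 1191 CPM in *WSD* and from 60.8 to 449 CPM in *T* + *WSD*, and *KRT7* alone of the 9 was at 0 in a library. The summed level of the 11 endothelial markers ran from 1078 to 1821 CPM in *C*, from 1347 to 2209 CPM in *T*, from 1603 to 2468 CPM in *WSD* and from 2055 to 3161 CPM in *T* + *WSD*, with none at 0. With the mesothelial list mean as a covariate, edgeR called 0 of the 28 genes and 1 of all 15207 (0.00658%), and 2 of the 28 had an unadjusted p under 0.05, where 4.7% of all genes did. Those were *FRZB*, with a log2 fold change of 2.63, and *RSPO3*, with 1.05. With the endothelial list mean as a covariate, edgeR called 0 of the 28 genes and 0 of all genes, and 9 of the 28 had an unadjusted p under 0.05, where 8.56% of all genes did. All 14 called genes kept their sign under either covariate. Every *T* + *WSD* animal lay below every control in the mesothelial list mean and above every control in the endothelial list mean, so these lists and the group cannot be told apart in this comparison.

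**Figure D2:**
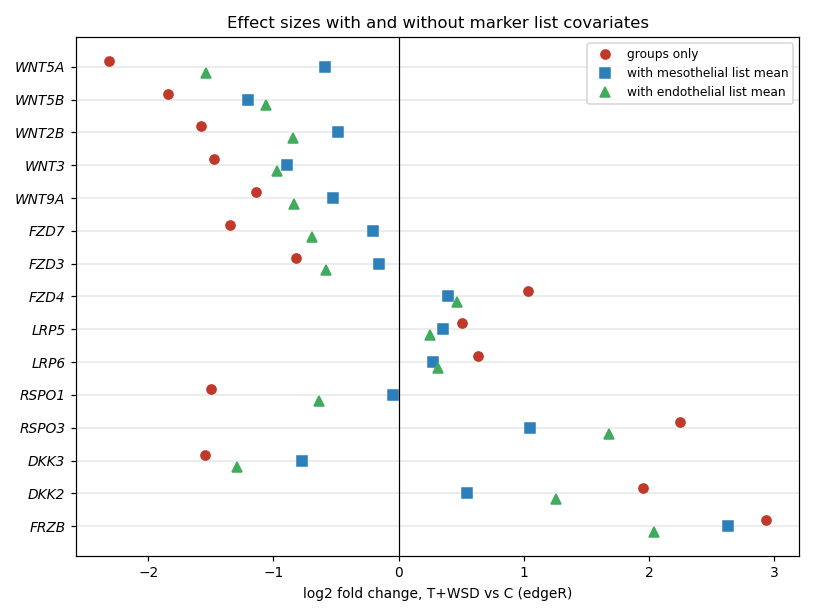
Log2 fold change of *T* + *WSD* against *C* (edgeR) for the 14 called genes and *LRP5*, fitted with the groups only (circles), with the mean of the mesothelial markers as a covariate (squares) and with the mean of the endothelial markers (triangles). *RSPO1* moved from -1.50 to -0.05 with the mesothelial mean, while *FRZB* moved from 2.94 to 2.63.

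*WNT5A* (ENSMMUG00000039130), best known as a ligand of beta-catenin-independent signalling, had the largest decrease among the ligands. Its level was 118, 156 and 498 CPM in *C* (lowest, median, highest), 57.6, 112 and 294 CPM in *T*, 34.7, 71.1 and 175 CPM in *WSD* and 13.9, 42.6 and 68.4 CPM in *T* + *WSD*. All 6 *T* + *WSD* animals lay below every control, and *T* and *WSD* lay between with wide overlap. The log2 fold change of *T* + *WSD* against *C* was -2.31 (SE 0.49, adjusted p = 0.00560), a level 4.97-fold lower. Its close relative *WNT5B* (ENSMMUG00000001325) was scarce, with 0 to 38 counts in any library. It had 0.328, 1.149 and 1.86 CPM in *C* against 0, 0.234 and 0.597 CPM in *T* + *WSD*, where 4 of 6 animals lay below every control. The 0 belonged to *T* + *WSD* replicate 8, the shallowest library, in which 3 counts would have stood for 0.848 CPM. In *T* the values of *WNT5B* were 0.568, 0.793 and 1.87 CPM, in *WSD* 0.434, 0.728 and 1.29 CPM, and its log2 fold change in *T* + *WSD* against *C* was -1.84 (SE 0.45, adjusted p = 0.0102).

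*WNT2B* (ENSMMUG00000007765), a canonical ligand, had the smallest adjusted p of the ligands. It stood at 41.8, 69.02 and 122 CPM in *C*, 27.5, 39.7 and 63.5 CPM in *T*, 16.01, 42.0 and 55.0 CPM in *WSD* and 16.4, 22.8 and 33.8 CPM in *T* + *WSD*. The *T* + *WSD* animals did not overlap the controls, and 5 of 6 *T* animals also lay below every control. Its log2 fold change in *T* + *WSD* was -1.58 (SE 0.27, adjusted p = 0.00294). *WNT3* (ENSMMUG00000020809), a ligand of the canonical branch, had 4.35, 7.29 and 13.7 CPM in *C* and 2.35, 2.71 and 3.29 CPM in *T* + *WSD*, again without overlap. Its values were 3.66, 5.91 and 14.7 CPM in *T* and 3.04, 5.38 and 10.5 CPM in *WSD*, and the log2 fold change of *T* + *WSD* against *C* was -1.47 (SE 0.35, adjusted p = 0.00942). *WNT9A* (ENSMMUG00000008338), known from joint and liver development, had 18.2, 19.003 and 37.2 CPM in *C*, 13.02, 23.5 and 26.8 CPM in *T*, 11.6, 17.8 and 23.7 CPM in *WSD* and 5.37, 11.8 and 13.9 CPM in *T* + *WSD*. Its 6 *T* + *WSD* animals lay below every control (log2 fold change -1.14, SE 0.25, adjusted p = 0.00616), and the median in *T* was above that in *C*. *WNT2B*, *WNT3*, *WNT5A* and *WNT9A*, with *FZD3*, made up the 5 genes of the 28 with every *T* + *WSD* animal below every control, which held for 4.12% of all tested genes.

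The remaining tested ligands did not pass. *WNT7B* (ENSMMUG00000000180) had 0.328, 0.509 and 2.92 CPM in *C* and 0, 0.142 and 0.688 CPM in *T* + *WSD*, with a log2 fold change of -1.95 (SE 0.69, adjusted p = 0.0544). Its 0 was again in *T* + *WSD* replicate 8, where 3 counts stood for 0.848 CPM. DESeq2 called *WNT7B* as well (adjusted p = 0.0344), which made its count 15 where edgeR had 14. *WNT10B* (ENSMMUG00000015705), a canonical ligand known for restraining adipogenesis, had 0.0562, 0.416 and 1.05 CPM in *C* and 0.499, 1.06 and 1.33 CPM in *T* + *WSD*. Its log2 fold change was 0.98 (SE 0.51, adjusted p = 0.193), and 3 of 6 *T* + *WSD* animals lay above every control.

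**Figure D3:**
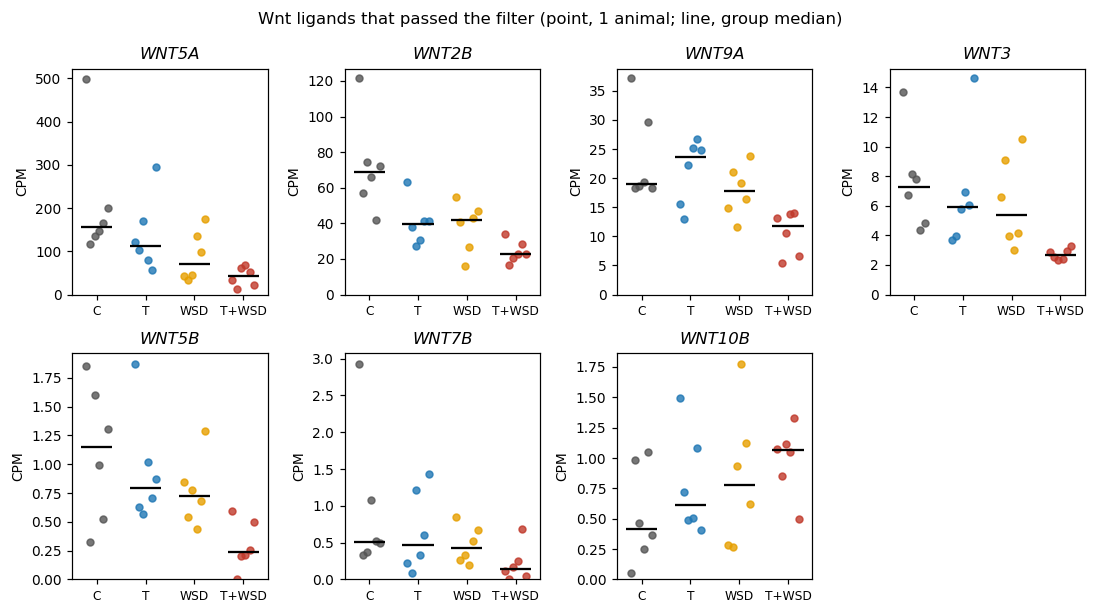
Level in CPM of the 7 tested Wnt ligands in each animal (points) and the group median (line), by group, with a separate axis from 0 for each gene. For *WNT5A*, *WNT2B*, *WNT9A* and *WNT3* the *T* + *WSD* animals lie below every control, and for *WNT10B* the *T* + *WSD* median of 1.06 CPM lies above the *C* median of 0.416 CPM.

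Among the Frizzled receptors, which bind Wnts at the cell surface, 3 of 7 tested were called. *FZD4* (ENSMMUG00000004048), known for its part in blood vessel growth, stood at 187, 323 and 400 CPM in *C*, 240.5, 345 and 574 CPM in *T*, 299, 433 and 748 CPM in *WSD* and 492, 646 and 730 CPM in *T* + *WSD*. No *T* + *WSD* animal overlapped the controls, and the highest animal of all was in *WSD*. The level was 2.04-fold higher in *T* + *WSD* than in *C* (log2 fold change 1.03, SE 0.24, adjusted p = 0.00777). With the endothelial list mean as a covariate the log2 fold change of *FZD4* was 0.47, and it was not called.

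*FZD7* (ENSMMUG00000045285), a receptor used in canonical signalling, had 21.4, 50.3 and 143 CPM in *C*, 28.27, 37.9 and 86.3 CPM in *T*, 18.2, 28.4 and 50.1 CPM in *WSD* and 12.4, 25.1 and 28.9 CPM in *T* + *WSD*. The groups overlapped, with 1 of 6 *T* + *WSD* animals below every control. Its log2 fold change was -1.35 (SE 0.37, adjusted p = 0.0166), and without *C* replicate 1, the highest control, it was -0.87 (adjusted p = 0.0745) and no longer called. *FZD3* (ENSMMUG00000007486), known from planar cell polarity and axon guidance, had 8.70, 10.3 and 12.3 CPM in *C*, 7.62, 8.34 and 12.1 CPM in *T*, 5.34, 7.38 and 12.6 CPM in *WSD* and 3.39, 5.35 and 8.34 CPM in *T* + *WSD*. The *T* + *WSD* animals lay below every control (log2 fold change -0.82, SE 0.21, adjusted p = 0.0120). The other tested Frizzled genes were not called and had log2 fold changes of -0.12 (*FZD2*), -0.02 (*FZD6*), -0.33 (*FZD8*) and 0.36 (*FZD9*). Their mean levels were 6.53, 36.8, 15.1 and 0.832 CPM in *C* and 6.01, 36.5, 11.8 and 0.965 CPM in *T* + *WSD*, in the same order.

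The LRP co-receptors, which pair with Frizzled receptors in canonical signalling, both had higher levels in *T* + *WSD*. *LRP6* (ENSMMUG00000023317) had 112, 155 and 169.6 CPM in *C*, 152, 188 and 230.01 CPM in *T*, 125, 198 and 220.2 CPM in *WSD* and 198, 227 and 270.2 CPM in *T* + *WSD*. Its *T* + *WSD* animals lay above every control, and the log2 fold change was 0.64 (SE 0.14, adjusted p = 0.00705). *LRP5* (ENSMMUG00000031237) had 78.7, 108 and 129 CPM in *C*, 106, 133 and 173 CPM in *T*, 115, 143 and 153 CPM in *WSD* and 139, 146 and 174 CPM in *T* + *WSD*. It also showed no overlap between *T* + *WSD* and *C*, with a log2 fold change of 0.51 (SE 0.12, adjusted p = 0.00845), but its 1.42-fold difference was under the fold threshold. *FZD4*, *LRP5*, *LRP6* and *RSPO3* were the 4 genes of the 28 with every *T* + *WSD* animal above every control, which held for 3.49% of all tested genes.

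The R-spondins moved apart. *RSPO3* (ENSMMUG00000015355) had 2.92, 5.53 and 9.19 CPM in *C*, 4.22, 6.87 and 13.7 CPM in *T*, 5.76, 6.97 and 12.95 CPM in *WSD* and 14.4, 21.3 and 50.03 CPM in *T* + *WSD*. Every *T* + *WSD* animal lay above every animal of the other 3 groups. The level was 4.76-fold higher than in *C* (log2 fold change 2.25, SE 0.34, adjusted p = 0.00226). *RSPO1* (ENSMMUG00000008420) had 75.1, 130.2 and 456 CPM in *C*, 71.6, 115 and 144 CPM in *T*, 39.7, 96.3 and 156 CPM in *WSD* and 42.7, 61.0 and 93.7 CPM in *T* + *WSD*. Of the *T* + *WSD* animals 5 of 6 lay below every control (log2 fold change -1.50, SE 0.38, adjusted p = 0.0119). Without *C* replicate 1, which held the 456 CPM, *RSPO1* had a log2 fold change of -0.92 (adjusted p = 0.0512) and was not called. Without that animal 12 of the 28 genes were called, against 5.87% of all genes.

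Within an animal, the ratio of *RSPO1* counts to *RSPO3* counts had a median of 23.6 in *C* (12.5 to 156), 16.6 in *T* (6.28 to 33.5), 14.5 in *WSD* (3.21 to 23.1) and 2.75 in *T* + *WSD* (0.853 to 6.50). It is given as a description of the 24 animals, without a test or a correction for gene length. The *T* + *WSD* range lay below the *C* range and overlapped those of *T* and *WSD*. The LGR receptors, to which R-spondins bind, were not called. *LGR4* had a mean of 51.1 CPM in *C* and 65.7 CPM in *T* + *WSD* (log2 fold change 0.36, adjusted p = 0.263), and *LGR6* had 0.807 and 0.759 CPM (log2 fold change -0.01, adjusted p = 0.990).

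Of the Dickkopf genes, *DKK2* (ENSMMUG00000001630), a ligand of the LRP co-receptors, rose. It had 2.08, 2.90 and 5.76 CPM in *C*, 1.501, 3.64 and 8.26 CPM in *T*, 1.83, 7.31 and 17.9 CPM in *WSD* and 5.44, 13.001 and 21.5 CPM in *T* + *WSD*. With 4 of 6 *T* + *WSD* animals above every control, its log2 fold change was 1.95 (SE 0.51, adjusted p = 0.0138). *DKK3* (ENSMMUG00000022862), a divergent family member that does not act on the LRP co-receptors as *DKK1* does, had 68.0, 159 and 315 CPM in *C*, 46.9, 142 and 179 CPM in *T*, 56.7, 118 and 238 CPM in *WSD* and 29.96, 64.0 and 70.7 CPM in *T* + *WSD*. Its log2 fold change was -1.55 (SE 0.42, adjusted p = 0.0160), with 4 of 6 *T* + *WSD* animals below every control. *DKK1*, the canonical inhibitor of the family, had means of 4.02 CPM in *C*, 2.61 CPM in *T*, 6.08 CPM in *WSD* and 2.32 CPM in *T* + *WSD* and was not called (log2 fold change -0.76, SE 0.43, adjusted p = 0.227).

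*FRZB* (ENSMMUG00000014396), also known as a secreted Frizzled-related protein, showed the largest increase of the 28 genes. It had 5.96, 10.2 and 21.6 CPM in *C*, 8.17, 16.1 and 29.7 CPM in *T*, 6.64, 20.3 and 78.1 CPM in *WSD* and 21.3, 57.9 and 226 CPM in *T* + *WSD*. Of the *T* + *WSD* animals 5 of 6 lay above every control, and the spread within *T* + *WSD* was wide. The level was 7.66-fold higher than in *C* (log2 fold change 2.94, SE 0.59, adjusted p = 0.00409).

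The other members of this class were not called. *SFRP1*, which binds Wnts, had a mean of 73.4 CPM in *C* and 145 CPM in *T* + *WSD* (log2 fold change 0.98, SE 0.45, adjusted p = 0.136). *SFRP2* had means of 20.5 and 10.2 CPM (log2 fold change -1.002, SE 0.51, adjusted p = 0.181), and *SFRP4* had 59.5 and 48.9 CPM (log2 fold change -0.27, SE 0.46, adjusted p = 0.736). *WIF1* ranged from 10.7 to 120.5 CPM in *C* and from 4.30 to 39.3 CPM in *T* + *WSD* (log2 fold change -1.27, SE 0.76, adjusted p = 0.263).

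**Figure D4:**
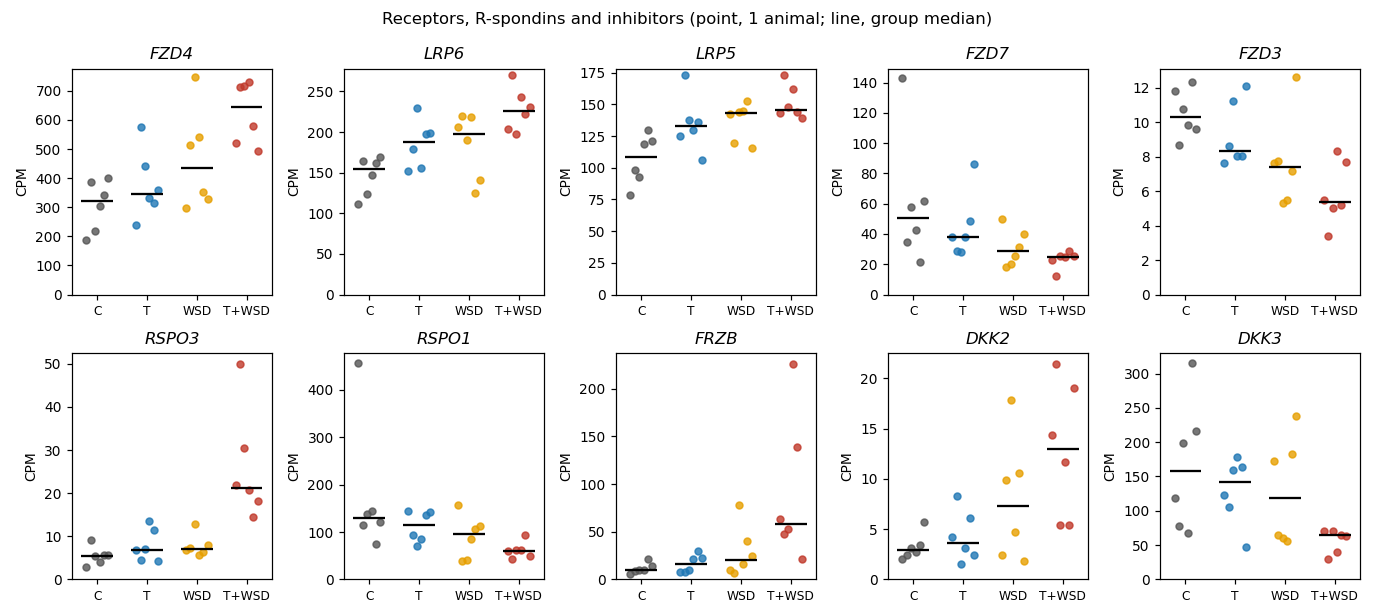
Level in CPM of 10 receptors, R-spondins and inhibitors in each animal (points) and the group median (line), by group, with a separate axis from 0 for each gene. *RSPO3* in *T* + *WSD* (14.4 CPM and above) lies above all animals of the other groups, while *FZD7* overlaps between *T* + *WSD* and *C*.

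The markers of other cell types are set beside single genes here. *WNT5A* and *RSPO1* had their highest value, 498 and 456 CPM, in *C* replicate 1, which also had the highest mesothelial list mean of the 24 animals (6.61 log2 CPM). That animal was the highest control for *WNT2B*, *WNT3*, *WNT9A* and *FZD7* as well. It had the lowest control level of the adipocyte markers *LEP* (4.39 CPM, *C* median 272), *PLIN4* (86.3, median 2216), *CIDEC* (38.1, median 335) and *GPD1* (170, median 1377). The same held for *PLIN1*, *FABP4* and *LIPE*, but not for *ADIPOQ*, whose lowest control level (498 CPM) was in another animal. The mesothelial list mean ran from 5.61 to 6.61 log2 CPM in *C* and from 1.91 to 4.40 log2 CPM in *T* + *WSD*. The lowest *WNT5A* value, 13.9 CPM, and the lowest list mean, 1.91 log2 CPM, were both in *T* + *WSD* replicate 8. The highest *RSPO3* value, 50.03 CPM, was in that same library, which had the highest endothelial list mean (7.14 log2 CPM). *T* + *WSD* replicate 8 was also the shallowest library, with 54.7% of its counts in ENSMMUG00000038258. It and *C* replicate 1 (9.92%) were both in the library batch. *C* replicate 2, also in the batch (40.2%), had the lowest control value of *WNT5A* (118 CPM). Each of these extremes came from a single library, and whether the batch played a part was not tested. With the mesothelial list mean as a covariate, the log2 fold changes were -0.59 for *WNT5A*, -1.20 for *WNT5B*, -0.48 for *WNT2B*, -0.89 for *WNT3*, -0.53 for *WNT9A*, -0.20 for *FZD7*, -0.15 for *FZD3*, -0.05 for *RSPO1* and -0.77 for *DKK3*. For the higher genes they were 2.63 for *FRZB*, 1.05 for *RSPO3*, 0.55 for *DKK2*, 0.39 for *FZD4* and 0.27 for *LRP6*. With the endothelial list mean, *RSPO3* had a log2 fold change of 1.68 (adjusted p = 0.474) and *FRZB* had 2.04 (adjusted p = 0.490).

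**Figure D5:**
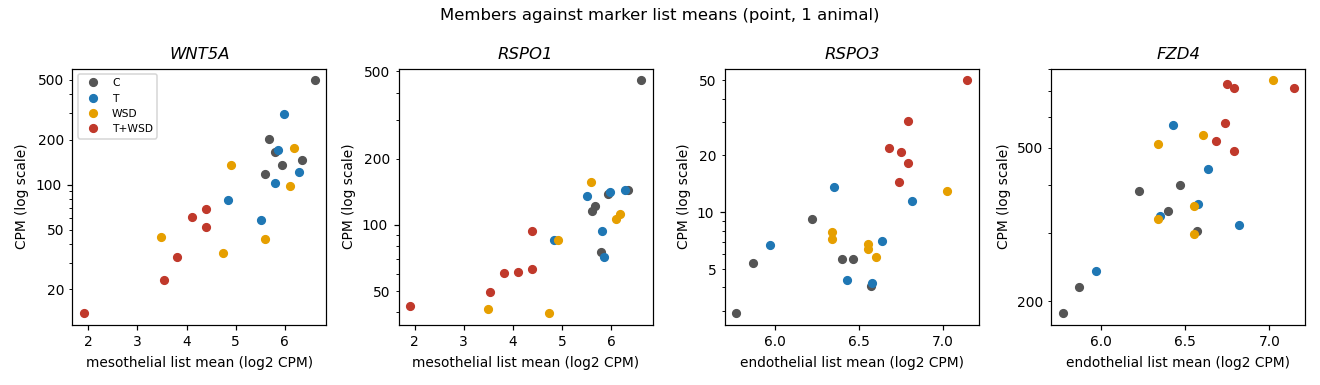
CPM on a log scale for *WNT5A* and *RSPO1* against the mean log2 CPM of 9 mesothelial markers, and for *RSPO3* and *FZD4* against that of 11 endothelial markers, with 1 point per animal coloured by group. The *T* + *WSD* animals lie at the low end of the mesothelial axis (1.91 to 4.40) and between 6.68 and 7.14 on the endothelial axis.

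The exposures on their own were compared with the same controls, so these comparisons and that of *T* + *WSD* share the *C* animals. In *WSD* against *C*, which asked what the diet did without testosterone, edgeR called 0 of the 28 genes, as it called 0% of all genes. At an unadjusted p under 0.05 there were 12 of 28 genes, 5 higher and 7 lower, against 18.5% of all genes. That count was 5 without *C* replicate 1 (10.5% of all genes), 7 without *WSD* replicate 21 (15.6%) and 6 of 29 outside the library batch (11.6%). It was 3 with the mesothelial list mean as a covariate (10.9%) and 3 with the endothelial list mean (10.6%). DESeq2 called 1 gene (1.58% of the genes it tested), *WNT2B* (log2 fold change -0.93, adjusted p = 0.0382), for which edgeR gave -0.93 (SE 0.27, adjusted p = 0.131). Values for some genes in *WSD* and in *T* + *WSD* against *C* stood side by side as -1.25 and -2.31 for *WNT5A*, 0.36 and 0.51 for *LRP5*, 1.30 and 2.94 for *FRZB* and 1.27 and 1.95 for *DKK2*. For *SFRP2* they were -1.47 and -1.002, and for *WIF1* -1.85 and -1.27, with no call in either comparison.

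In *T* against *C*, which asked what testosterone did on chow, edgeR called 0 of the 28 genes and 0% of all genes, 3 of the 28 had an unadjusted p under 0.05 (8.63% of all genes), and DESeq2 called 0 (0.029% of the genes it tested). The 3 genes were *WNT2B* (log2 fold change -0.84, SE 0.27), *LRP5* (0.34, SE 0.12) and *LRP6* (0.34, SE 0.14), with adjusted p values of 0.519, 0.523 and 0.547. The number of genes at an unadjusted p under 0.05 was 5 without *C* replicate 2 and 6 without *T* replicate 18. No share of all genes is given for those fits. *RSPO3* had a log2 fold change of 0.57 (SE 0.33, adjusted p = 0.627) and *WNT3* had -0.15 (SE 0.34, adjusted p = 0.934).

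The comparison of *T* + *WSD* with *WSD* asked what testosterone added on the diet. *RSPO3* was called, 1 of 28 genes (3.57%) against 0.815% of all genes, with a log2 fold change of 1.71 (SE 0.33, adjusted p = 0.0196). Its groups did not overlap, which held upward for 1 gene of the 28 (1.47% of all genes) and downward for 0 (1.37%). It had an adjusted p of 0.0565 without *T* + *WSD* replicate 8, 0.0534 without *WSD* replicate 20 and 0.0585 without *WSD* replicate 24. At an unadjusted p under 0.05 there were 10 genes of the 28, 3 higher and 7 lower, against 20% of all genes. Among them *WNT3* had a log2 fold change of -1.17 (SE 0.35, adjusted p = 0.0769), *DKK1* had -1.35 (SE 0.43, adjusted p = 0.0894) and *FRZB* had 1.64 (SE 0.56, adjusted p = 0.106). DESeq2 called 4 genes (2.62% of the genes it tested), these 3 and *RSPO3*. With the mesothelial list mean as a covariate edgeR called 0 of the 28 (0.00658% of all genes), with 2 at an unadjusted p under 0.05 (8.88%), and with the endothelial list mean it called 0 (0.112%), with 7 at an unadjusted p under 0.05 (13.6%). The log2 fold change of *RSPO3* was 0.91 under the mesothelial covariate (adjusted p = 0.405) and 1.48 under the endothelial covariate (adjusted p = 0.0639).

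The comparison of *T* + *WSD* with *T* asked what the diet added under testosterone. Here 6 of 28 genes (21.4%) were called, against 3.77% of all genes, 2 of them higher (2.34% of all genes) and 4 lower (1.43%). At an unadjusted p under 0.05 there were 15 (25.9% of all genes), and DESeq2 called 10 (6.1% of the genes it tested). *RSPO3* had a log2 fold change of 1.68 (SE 0.33, adjusted p = 0.00734) and *FRZB* had 2.45 (SE 0.58, adjusted p = 0.0195). The lower genes were all ligands. *WNT5A* had a log2 fold change of -1.70 (SE 0.48, adjusted p = 0.0405) and *WNT5B* had -1.57 (SE 0.45, adjusted p = 0.0412). *WNT3* had -1.33 (SE 0.35, adjusted p = 0.0307), and *WNT9A* had -0.99 (SE 0.25, adjusted p = 0.0250). Every *T* + *WSD* animal lay below every *T* animal for *WNT3* (3.1% of all genes) and above for *RSPO3* (2.99%). Of the mesothelial markers 7 of 9 were also called lower in *T* + *WSD* than in *T*, against 1.43% of all genes. With their list mean as a covariate edgeR called 0 of the 28 genes (0% of all genes), with 2 at an unadjusted p under 0.05 (7.65%), and with the endothelial list mean it called 0 (0.197%), with 9 at an unadjusted p under 0.05 (13.8%). The log2 fold changes under the mesothelial and then the endothelial covariate were 2.20 and 1.999 for *FRZB*, 0.66 and 1.33 for *RSPO3*, -0.85 and -1.12 for *WNT3*, -0.22 and -1.35 for *WNT5A*, -1.03 and -1.10 for *WNT5B* and -0.50 and -0.85 for *WNT9A*. Leaving out *T* + *WSD* replicate 8, 9 or 10 brought the count to 2, and leaving out *T* replicate 16 or 18 brought it to 3. Shares of all genes are not given for these fits.

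The interaction asked whether the difference made by testosterone depended on the diet. edgeR called 0 of the 28 genes at an adjusted p under 0.1, against 0.809% of all genes, 2 had an unadjusted p under 0.05, where 13.5% of all genes did, and DESeq2 called 0 (2.77% of the genes it tested). These were *RSPO3*, with an interaction of 1.14 on the log2 scale (SE 0.46, adjusted p = 0.277), and *WNT3*, with -1.03 (SE 0.49, adjusted p = 0.365). Without *T* + *WSD* replicate 8 the number at an unadjusted p under 0.05 was 0, and without any other animal it was 1 to 3, with no share of all genes given. For *RSPO3*, testosterone made a difference of 0.57 on chow and 1.71 on the diet. The calls in *T* + *WSD* were therefore not shown to depart from the sum of the separate differences.

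The other genes of the pathway, from a list of carriers, co-receptors, cytoplasmic and nuclear components, showed fewer calls. In *T* + *WSD* against *C*, 5 of 44 tested genes (11.4%) were called, near the 10% of all genes, 2 higher and 3 lower. At an unadjusted p under 0.05 there were 21 of the 44, 7 higher and 14 lower, against 32.1% of all genes. *ROR2* (ENSMMUG00000020009), a co-receptor for *WNT5A*, had 22.7, 32.6 and 38.3 CPM in *C* and 6.22, 13.9 and 17.7 CPM in *T* + *WSD*, without overlap (log2 fold change -1.22, SE 0.29, adjusted p = 0.00922). *PTK7* (ENSMMUG00000011670), a pseudokinase receptor of planar polarity, had a log2 fold change of -1.08 (SE 0.30, adjusted p = 0.0174), and the polarity cadherin *CELSR1* (ENSMMUG00000020993) had -0.84 (SE 0.26, adjusted p = 0.0321). *TCF7L2* (ENSMMUG00000022799), a nuclear partner of beta-catenin, had 5.82, 6.81 and 8.60 CPM in *C* and 9.15, 11.9 and 15.8 CPM in *T* + *WSD*, without overlap (log2 fold change 0.83, SE 0.14, adjusted p = 0.00294). *DAAM2* (ENSMMUG00000019072), a formin that acts downstream of Dishevelled, had 88.2, 141 and 177 CPM in *C* and 205, 333 and 423 CPM in *T* + *WSD* (log2 fold change 1.25, SE 0.22, adjusted p = 0.00294), also without overlap. Among the 44 genes, every *T* + *WSD* animal lay above every control for 2 (3.49% of all tested genes) and below for 1 (4.12%). These numbers are near the shares of all genes.

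By step of the pathway, calls were 0 of 2 for ligand secretion, 2 of 8 for co-receptors and receptor turnover (0 higher, 2 lower, with 7 of the 8 lower at an unadjusted p under 0.05), 0 of 15 for the cytoplasmic components, 1 of 11 for nuclear factors (higher) and 2 of 8 for planar polarity (1 higher, 1 lower). Of all tested genes, 10% were called and 32.1% had an unadjusted p under 0.05 in either direction. *CTNNB1*, which encodes beta-catenin, had a log2 fold change of -0.22 (SE 0.10, adjusted p = 0.109). The list of genes that canonical signalling is known to induce as feedback had 11 symbols. Of these, *AXIN2*, *NOTUM* and *APCDD1* matched no gene of the count table and could not be read. Among the others edgeR and DESeq2 called 0 of 8 tested. Of those 8, *RNF43*, *ZNRF3*, *LEF1*, *TCF7*, *NKD1* and *NKD2* also belong to the 44 genes, so the counts by step and by feedback overlap. At an unadjusted p under 0.05 there were 4, all with lower levels in *T* + *WSD*, where 32.1% of all genes had such a p in either direction. These were *TNFRSF19* (log2 fold change -0.90, SE 0.35, adjusted p = 0.0748), *RNF43* (-1.27, SE 0.45, adjusted p = 0.0550), *LEF1* (-0.99, SE 0.46, adjusted p = 0.141) and *ZNRF3* (-0.49, SE 0.16, adjusted p = 0.0415, 1.41-fold lower and under the fold threshold). For *TNFRSF19* every *T* + *WSD* animal lay below every control, which held for 4.12% of all tested genes. The other 4 had log2 fold changes of 0.30 (*NKD1*), 0.24 (*NKD2*), 0.42 (*SP5*) and -0.21 (*TCF7*). Counts were low for *RNF43*, at 5 to 21 in *C* and 0 to 9 in *T* + *WSD*. They were also low for *SP5*, at 3 to 17 in *C* and 3 to 23 in *T* + *WSD*. In *T* + *WSD* against *WSD*, *TCF7L2* was called (0.60, SE 0.14, adjusted p = 0.0367), 1 of the 44 genes (2.27%) against 0.815% of all genes. In *T* + *WSD* against *T*, *TCF7L2* (0.59, SE 0.14, adjusted p = 0.0194) and *DAAM2* (0.82, SE 0.22, adjusted p = 0.0316) were called. That was 2 of the 44 genes (4.55%), near the 3.77% of all genes.

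The 10 genes under the filter were scarce in every library. *DKK4* and *RSPO4* reached 1 count, *WNT1*, *WNT7A* and *WNT8B* reached 2, *WNT8A* reached 4, *WNT16* reached 8, *LGR5* reached 9, *FZD10* reached 13 and *WNT9B* reached 29 counts. No fold change is given for them. *WNT1* and *WNT10B*, *WNT3* and *WNT9B*, and *WNT9A* and *WNT3A* are neighbours in the RefSeq annotation of the rhesus genome, and the strand setting of the counts is not given in the sources used here.

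The library batch was set against the calls in *T* + *WSD* against *C*. With the batch as a covariate edgeR called 14 of the 28 genes, 5 higher and 9 lower, and no share of all genes is given for that fit. In the 16 libraries outside the batch, 4 per group, it called 2 of 29 genes, *RSPO3* (log2 fold change 2.03, adjusted p = 0.0436) and *WNT2B* (-1.41, adjusted p = 0.0474), against 0.505% of all genes, and 16 genes had an unadjusted p under 0.05, against 21.1% of all genes. All 14 called genes had the same sign of the difference in mean log2 CPM inside the batch (2 against 2 animals) and outside it (4 against 4). For *WNT5A* it was -3.50 inside and -1.75 outside, for *RSPO1* -2.17 and -0.84, for *RSPO3* 2.65 and 1.95, and for *FRZB* 2.86 and 2.52.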

How the data were processed

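RNA-seq was analysed for 24 animals, grouped by the sample labels, with single reads from libraries made after removal of ribosomal RNA. Per the submitters' processing notes and the methods, reads were checked with FastQC 0.11.5, trimmed with Trimmomatic 0.36 and aligned to rheMac8 with STAR 2.5.2b, and DESeq2 1.18.1 was used. The authors deposited 1 table of raw counts per gene with 1 column per animal. The counting tool and its strand setting are not given in the sources used here. All 24 columns were tied to a sample by title, and 0 pairs of the 60 pairs of libraries within groups were identical.

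Counts were filtered with filterByExpr (minimum count 10, minimum total 15), scaled by TMM and fitted in 1 model of the 4 groups with the quasi-likelihood F-test of edgeR 4.0.16 (R 4.3.3, robust=TRUE, legacy=TRUE). All p values are two-sided, and adjusted p values are Benjamini-Hochberg over all 15207 tested genes. Calls required an adjusted p under 0.05 together with a difference above 1.5-fold, or for the interaction an adjusted p under 0.1. Standard errors are the log2 fold change divided by the root of F. Marker list means are means of log2 CPM with a prior count of 2.

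Symbols came from the gene name table for 36 of the 38 genes and from the study's supplementary tables for *DKK2* and *WNT5A*. Genes called in any comparison, or with an adjusted p under 0.05 in any, are described in full, the others by levels and log2 fold changes, and of the other pathway genes those called in *T* + *WSD* against *C* and the feedback targets are named. The genes, lists and tests were chosen with earlier results of these data known. Alternatives were DESeq2 1.42.0, RLE and upper-quartile scaling, no filter or 10 counts in every animal, robust=FALSE, legacy=FALSE, the library batch as a covariate or left out, the mesothelial or endothelial list mean as a covariate, other fold and interaction thresholds, only the 2 groups compared, and each animal left out. No sequences, coordinates or gene lengths were used, so levels are not compared between genes. Where groups of separate animals are compared, p values measure the spread between these animals, and floors cover counting error only.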

Additional observations from a re-analysis of the deposited data

Results flagged for a closer look

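For the 15 genes described in full, each of the 60 sets of 6 animals was searched for an animal far from the other 5, and 3 sets had one, where chance gives about 1 in 20. *WNT5A* in *C* replicate 1 was at 498 CPM, against 118 to 200.3 CPM in the other controls. *RSPO1* in that same animal was at 456 CPM, against 75.1 to 144 CPM. *FZD7* in *T* + *WSD* replicate 8, the shallowest library, was at 12.4 CPM, against 23.1 to 28.9 CPM in the other *T* + *WSD* animals.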

How the results depend on the processing

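No paired analysis was possible because the groups share no replicate numbers. Counts of called genes among the 28 were 14 (*T* + *WSD* against *C*), 6 (against *T*), 1 (against *WSD*) and 0 in the other comparisons. With the mesothelial or the endothelial list mean as a covariate they were 0 in *T* + *WSD* against *C*, *T* and *WSD*, and 0 of the other pathway genes were called. Outside the library batch, with fewer animals, they were 2 (0.505% of all genes), 2 and 0, with 0 other pathway genes. With the batch as a covariate they were 2 in *T* + *WSD* against *WSD*. No other share of all genes is given for these fits. DESeq2 called 1 in *WSD* against *C* (1.58% of the genes it tested), 4 in *T* + *WSD* against *WSD* (2.62%) and 10 in *T* + *WSD* against *T* (6.1%). The fit of only the 2 groups called 12 in *T* + *WSD* against *T*, with no share of all genes given. In *T* + *WSD* against *C*, other pathway genes numbered 9 of 44 with no fold threshold, where 17.1% of all genes passed. They numbered 3 with a fold over 2, with no share of all genes given. Leaving out 1 animal gave 12 to 15 for *T* + *WSD* against *C*, 2 to 8 against *T*, 0 to 4 against *WSD*, 0 to 0 in *WSD* and *T* against *C* and in the interaction, and 4 to 7 other pathway genes. Shares of all genes are not given beside these ranges, so they cannot be set against the change over all genes. The 4 called in *T* + *WSD* against *WSD* came without *WSD* replicate 21. In *T* + *WSD* against *C*, no log2 fold change of the 15 genes described in full changed sign under any alternative run. RLE and upper-quartile scaling moved the median of all genes in *T* + *WSD* against *C* from -0.04 to -0.02 and -0.01. The cause of these changes was not tested, and leaving out the library batch also lowered the number of animals. Low counts limit *WNT5B*, *WNT7B* and *WNT10B*, and among the feedback targets *RNF43* and *SP5*, and 6 animals per group limit every comparison.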
